A study of Mus musculus with 6 samples.

Results

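The genes described here are 41 chaperones, folding enzymes, degradation factors and stress sensors of the endoplasmic reticulum (ER), measured in osteoclast cultures of mice with and without a Cre transgene directed at the chloride channel gene *Ano1*. Members were listed by gene name. The array carried all 41 among 37069 gene names with a complete measurement. Bone marrow cells came from 3 Ano1fl/fl mice, which carry loxP sites around *Ano1* and no Cre, and from 3 Ctsk-Cre;Ano1fl/fl littermates, in which the promoter of the cathepsin K gene drives Cre. All 6 mice thus shared the floxed *Ano1* allele. The methods give an age of 6 to 8 weeks for marrow donors. Both groups were given RANKL, the cytokine that turns marrow precursors into osteoclasts, for 5 days, and total RNA of each culture was hybridised to a one-colour Agilent array. A limit of this model is that Cre under the cathepsin K promoter acts only once a cell has turned that gene on, and that a culture of marrow holds other cells beside osteoclasts.

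Proteins that are to be secreted or placed in a membrane enter the ER through the translocon, fold there with the help of chaperones, and gain disulfide bonds from the protein disulfide isomerases. Chains that fail to fold are drawn back into the cytosol and destroyed, a process called ER-associated degradation. When unfolded chains accumulate, the sensors IRE1, PERK and ATF6 start the unfolded protein response, in which spliced XBP1 and cleaved ATF6 turn on chaperone and degradation genes while PERK slows translation and raises the transcription factor ATF4. Osteoclasts are heavy secretors of lysosomal enzymes, and collagen-making cells use a further set of ER enzymes that hydroxylate and fold procollagen.

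The arrays held between 33480 and 34951 transcript spots well above background out of 59305, none of them saturated, and all lay on 1 slide. The *Ano1* probe was below background on every array. Its processed signal was 3.285, 3.225 and 3.908 on the arrays labelled Ano1fl/fl and 3.233, 3.251 and 3.806 on those labelled Ctsk-Cre;Ano1fl/fl, whereas the lowest signal well above background on an array was 15.0 to 18.4. The labels therefore could not be checked, and every direction below is that of the labels. The osteoclast identity of the cultures was read from 12 marker genes. All 12 rose in the group labelled Ctsk-Cre;Ano1fl/fl, with a summed signal of 211900 to 229300 on the arrays labelled Ano1fl/fl and 608700 to 688900 on the others. *Calcr*, 1 of the 12, was well above background on 2 of the 3 arrays labelled Ano1fl/fl, and without it 11 of 11 rose. This direction is opposite to the one the study describes for osteoclast markers in such cultures. Markers of other cells moved too. Of 18 stromal cell markers 15 were higher and 1 lower, of 10 plasma cell and B cell markers 7 were higher and 1 lower, of 12 granulocyte markers 2 were higher and 8 lower, and of 11 macrophage markers tested 2 were higher and 5 lower. *Lum*, *Pdgfra* and *Postn* passed the filter only through the group labelled Ctsk-Cre;Ano1fl/fl, and *Tnfrsf17* only through the other. Without them 12 of 15 stromal cell markers were higher and 1 lower, and of 9 plasma cell and B cell markers 7 were higher and 0 lower. In whole cultures, a change in the number of cells of a type and a change in the RNA per cell cannot be told apart.

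Relative to the arrays labelled Ano1fl/fl, those labelled Ctsk-Cre;Ano1fl/fl had 22 of the 41 genes higher and 2 lower by limma with an adjusted p under 0.05, while 17 were not called. The 22 are 53.7% of the genes, against 23.4% of all 20645 genes tested that were higher, and the 2 are 4.88%, against 29.0% of all genes that were lower. In either direction 58.5% were called, against 52.4% of all genes. The median log2 difference of the 41 genes was 0.35, and that of all genes was -0.06. The largest rises were those of *Fkbp10*, *Derl3*, *Plod2*, *P4ha2*, *Herpud1* and *Ero1l*, the 6 that passed 2-fold. *Plod2* entered the test only through the group in which it was bright, and without it 21 of 40 genes were higher and 5 passed 2-fold. A rise past 2-fold was seen in 9.88% of all genes and a fall past 2-fold in 7.19%, and the lowest difference among the 41 genes was -0.57. The groups did not overlap for 32 genes, or 78.0%, against 64.0% of all genes. The test compares 3 mice with 3 mice, a design in which an exact permutation test on a single gene cannot go below p = 0.1.

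**Figure D1:**
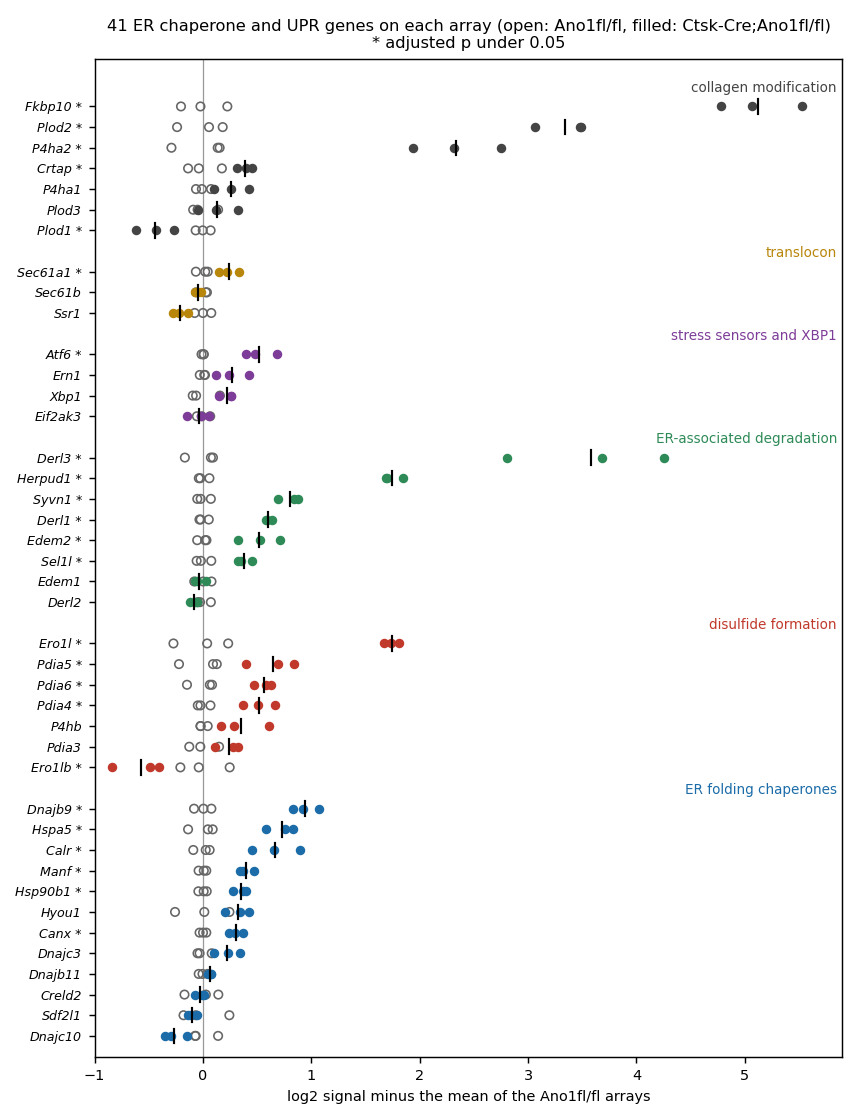
Normalised log2 signal of the 41 genes on each of 6 arrays, as the difference from the mean of the 3 arrays labelled Ano1fl/fl (open circles), with the arrays labelled Ctsk-Cre;Ano1fl/fl filled and coloured by role and their mean as a bar. Most of the filled points lie between 0 and 1, *Fkbp10*, *Derl3*, *Plod2*, *P4ha2*, *Herpud1* and *Ero1l* lie well to the right of the others, and only *Ero1lb* and *Plod1* lie to the left with a star.

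Promoters of ER chaperone genes are known to carry short elements through which the unfolded protein response acts, and those found here are shown so that the measured changes can be set beside them. RefSeq windows from 250 bases before to 50 bases after the start site, on GRCm38.p6, were at hand for 34 of the 41 genes. The ER stress element, ERSE, is bound by NF-Y at one end and by ATF6 or XBP1 at the other, and was searched on both strands as CCAAT, any 9 bases and CCACG. It lay in 10 of the 34 promoters, or 29.4%, against 37 of 27025 genes, or 0.137%. The shorter form ERSE-II, which reads ATTGG, any 1 base and CCACG, lay in 2 of 34, or 5.88%, against 12 genes, or 0.0444%. The letters TGACGTGG of the unfolded protein response element (UPRE) lay in none of the 34 and in 0.714% of all genes, and TGATGNAA, the element read by ATF4 (CARE), lay in 1, that of *Herpud1*, and in 4.51% of all genes. None of the 4 motifs overlapped another in these promoters. A match is a description of these letters, not evidence of binding.

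The matches are given 5′ to 3′ on the strand of the gene with 5 bases on either side, and the capitals mark the fixed letters of ERSE, which read CGTGG first where the element points away from the gene.
Hspa5: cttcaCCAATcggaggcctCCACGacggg
Hsp90b1, distal: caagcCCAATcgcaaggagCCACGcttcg
Hsp90b1, proximal: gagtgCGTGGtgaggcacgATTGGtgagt
Calr: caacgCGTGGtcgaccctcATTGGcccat
Canx: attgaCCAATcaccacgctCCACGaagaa
Dnajc3: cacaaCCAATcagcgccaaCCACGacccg
Creld2: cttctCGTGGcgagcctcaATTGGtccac
Pdia6: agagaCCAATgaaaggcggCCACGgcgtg
Ero1lb: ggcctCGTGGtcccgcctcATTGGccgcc
Syvn1: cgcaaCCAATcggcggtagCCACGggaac
Derl3: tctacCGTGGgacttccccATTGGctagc

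In the next pair the capitals mark the fixed letters of ERSE-II, which in *Herpud1* lies from 52 to 42 bases before the start site and in *Dnajb11* from 7 to 17 bases after it.
Herpud1: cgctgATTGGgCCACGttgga
Dnajb11: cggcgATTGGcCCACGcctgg

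Whole upstream windows of 250 bases are printed for *Hspa5*, the standard reporter of the response, and for *Herpud1* and *Derl3*, the carriers of an element with the largest rises. They lie at chr2:34771840-34772089, chr8:94386179-94386428 and chr10:75893148-75893397 of GRCm38.p6, each on the plus strand. Capitals mark the fixed letters of ERSE or ERSE-II.
Hspa5: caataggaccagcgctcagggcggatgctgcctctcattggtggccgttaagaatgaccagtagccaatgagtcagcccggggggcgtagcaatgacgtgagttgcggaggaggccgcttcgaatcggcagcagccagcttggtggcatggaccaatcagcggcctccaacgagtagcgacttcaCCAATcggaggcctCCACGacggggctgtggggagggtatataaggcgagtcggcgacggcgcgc
Herpud1: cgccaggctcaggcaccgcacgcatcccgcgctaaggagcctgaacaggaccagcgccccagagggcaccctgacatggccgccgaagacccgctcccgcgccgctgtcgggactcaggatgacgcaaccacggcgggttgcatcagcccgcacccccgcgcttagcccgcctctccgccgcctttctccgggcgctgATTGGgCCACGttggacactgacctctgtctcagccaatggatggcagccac
Derl3: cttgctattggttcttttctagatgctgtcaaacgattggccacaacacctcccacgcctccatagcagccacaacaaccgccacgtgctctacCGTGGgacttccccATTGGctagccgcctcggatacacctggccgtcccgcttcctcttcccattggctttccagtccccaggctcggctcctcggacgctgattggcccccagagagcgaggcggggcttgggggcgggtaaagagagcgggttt

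Of the 10 genes with ERSE, 7 were higher (*Hspa5*, *Hsp90b1*, *Calr*, *Canx*, *Pdia6*, *Syvn1* and *Derl3*), *Ero1lb* was lower, and *Dnajc3* and *Creld2* were not called. Their median log2 difference was 0.45. Of the pair with ERSE-II, *Herpud1* was higher and *Dnajb11* was not called. Among the 22 genes whose window held neither element, 8 were higher, 1 was lower and 13 were not called, with a median of 0.25. Outside the 41, 27 genes carried ERSE, of which 11 were tested, 2 were higher and 2 lower, and their median was -0.20. Likewise 10 other genes carried ERSE-II, of which 6 were tested, 4 were higher and none was lower, and their median was 0.43. Beside these counts, 23.4% of all genes tested were higher, 29.0% were lower and 52.4% were called in either direction. The difference between carriers and non-carriers was not tested. *Atf6*, *Derl1*, *Fkbp10*, *Hyou1*, *Manf*, *Plod2* and *Sec61a1* had no window here.

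**Figure D2:**
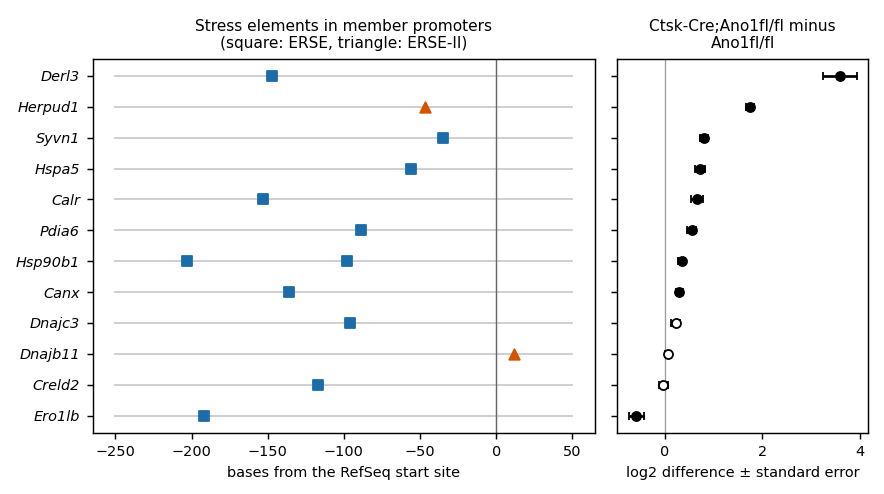
Left, position of each ERSE (square) and ERSE-II (triangle) in bases from the RefSeq start site for the 12 genes that carry one; right, log2 difference between the groups with its standard error, filled where the adjusted p was under 0.05. The element sits at varied distances, and genes with it run from *Ero1lb* at -0.57 to *Derl3* at 3.58.

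Among the 12 folding chaperones, 6 were higher and none was lower by limma (1 at an unadjusted p under 0.05), and the median log2 difference was 0.31. The share called, 50%, was close to the 52.4% of all genes called in either direction, while the share higher, also 50%, stood against 23.4%. With any single array left out, 6 to 7 of the chaperones were higher and 0 to 1 lower. *Hspa5* encodes BiP, the ER's main Hsp70 chaperone, which also holds the stress sensors inactive. Its brightest probe lies at mm9 chromosome 2 from 34631913 to 34631972. Its normalised log2 signal was 15.09, 15.28 and 15.32 on the arrays labelled Ano1fl/fl and 15.99, 16.07 and 15.82 on those labelled Ctsk-Cre;Ano1fl/fl. The groups did not overlap, and the rise was 1.65-fold, or 0.73 ± 0.10 on the log2 scale (standard error, limma adjusted p = 0.0017). Its other probes rose by 0.70 and 0.79 on the log2 scale.

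*Dnajb9*, a J-domain cochaperone of BiP that holds IRE1 in check, rose most in this group. Its log2 signal was 11.35, 11.28 and 11.19 on the arrays labelled Ano1fl/fl and 12.10, 12.34 and 12.20 on the others, a difference of 0.94 ± 0.09 (standard error, limma adjusted p = 0.00041). Calreticulin (*Calr*), the calcium-binding lectin chaperone, went from 13.61, 13.76 and 13.72 to 14.60, 14.35 and 14.15, a difference of 0.67 (limma adjusted p = 0.0056). Both genes had groups that did not overlap, and *Calr* was highest on the Ctsk-Cre;Ano1fl/fl array 1 and lowest on array 3 of that group. The remaining rises were smaller, at 0.39 for *Manf*, a secreted ER stress protein, 0.35 for *Hsp90b1*, the ER form of Hsp90, and 0.30 for calnexin (*Canx*), the membrane-bound partner of calreticulin (limma adjusted p = 0.0043, 0.0066 and 0.0112). The call of *Canx* was lost with 75th percentile scaling (adjusted p = 0.114).

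The other 6 chaperones did not pass the test, although they include established targets of the response. *Creld2* differed by -0.02, *Dnajb11* by 0.06 and *Sdf2l1*, which works with *Dnajb11*, by -0.10. *Dnajc3*, an inhibitor of the PERK pathway that helps BiP, differed by 0.23 (limma adjusted p = 0.0743). For *Hyou1*, the large Hsp70-like exchange factor of BiP, the brightest probe was dim. Its log2 signals were 6.86, 7.09 and 6.59 on the arrays labelled Ano1fl/fl and 7.19, 7.28 and 7.05 on the others. The groups overlapped, and its remaining tested probes differed by -0.05 and -0.03. *Dnajc10*, a reductase that unlocks disulfides before degradation, differed by -0.26 (limma adjusted p = 0.0559) at its brightest probe, and its 3 other probes stood between -0.80 and -0.40, each called in the fit over probes.

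Disulfide formation was represented by 7 genes, of which 4 or 57.1% were higher and 1 or 14.3% lower, against 23.4% and 29.0% of all genes, with a median of 0.52. *Ero1l*, also called *Ero1a*, encodes the oxidase that recharges protein disulfide isomerase with oxygen as the final acceptor, and is known as a target of hypoxia and of CHOP. Its log2 signal was 13.48, 13.99 and 13.79 on the arrays labelled Ano1fl/fl and 15.49, 15.57 and 15.42 on the others. Every array of the second group lay far above the first, by 1.74 ± 0.14 (standard error) or 3.34-fold (limma adjusted p = 0.000195). The probe lies at mm9 chromosome 14 from 45902895 to 45902954.

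Its paralog *Ero1lb*, or *Ero1b*, which is prominent in insulin-secreting cells, moved the other way. Its signals were 9.17, 8.88 and 8.71 against 8.44, 8.08 and 8.52, a difference of -0.57 (limma adjusted p = 0.0263). The groups did not overlap, but the call was lost without replicate 1 or 2 of either group (adjusted p = 0.0506 to 0.0681). The isomerases *Pdia5*, *Pdia6* and *Pdia4* rose by 0.65, 0.56 and 0.52 on the log2 scale (limma adjusted p = 0.0131, 0.0033 and 0.0054). The founding isomerase *P4hb*, which is also a subunit of prolyl 4-hydroxylase, differed by 0.35 and just missed the threshold (limma adjusted p = 0.0501), with its highest value, 14.27, on the Ctsk-Cre;Ano1fl/fl array 1. *Pdia3*, the isomerase that works with calnexin and calreticulin, differed by 0.24 (limma adjusted p = 0.0925) at its brightest probe and by 0.49 at the other, which was called.

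Of the 8 genes for ER-associated degradation, 6 were higher by limma and none was lower (0 at an unadjusted p under 0.05), with a median of 0.56. The share higher was 75%, against 23.4% of all genes, and the same 75% were called in either direction, against 52.4%. *Herpud1* encodes a ubiquitin-like membrane protein that assembles the degradation complex around the ligase. Its log2 signal was 12.16, 12.14 and 12.24 on the arrays labelled Ano1fl/fl and 13.87, 13.88 and 14.03 on those labelled Ctsk-Cre;Ano1fl/fl. The spread within a group was small beside the difference, 1.75 ± 0.08 (standard error) or 3.36-fold (limma adjusted p = 2.5e-05), and its other probe rose by 1.95. The brightest probe lies at mm9 chromosome 8 from 96919117 to 96919176.

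*Derl3*, a derlin of the retrotranslocation channel that is abundant in secretory cells such as plasma cells, rose further but with more scatter. It was dim on the arrays labelled Ano1fl/fl, at 6.14, 6.40 and 6.38, and reached 9.98, 9.11 and 10.56 on the others. The rise was 12.0-fold, or 3.58 ± 0.35 on the log2 scale (standard error, limma adjusted p = 0.000454), and 2.82 with normexp background correction. Its probe lies at mm9 chromosome 10 from 75358606 to 75358665. The summed signal of the 10 plasma cell and B cell markers was 40890, 43910 and 46090 on the arrays labelled Ano1fl/fl and 103900, 89870 and 119000 on those labelled Ctsk-Cre;Ano1fl/fl, so that both *Derl3* and this sum were highest on array 3 and lowest on array 2 of the latter group. This order of the arrays was found in 4 of the 41 genes, or 9.76%, against 18.1% of all genes. A single gene of this list took 72.4% to 74.4% of the sum on the arrays labelled Ano1fl/fl and 57.9%, 65.5% and 52% on the others. Without it the sum was 10460 to 12700 against 43780, 31040 and 57130, in the same order. The 5 B cell genes of this list were all higher, whereas of its 5 plasma cell genes 2 were higher, 2 were not called and *Tnfrsf17*, which was above background on none of the arrays labelled Ctsk-Cre;Ano1fl/fl, was lower. The plasma cell genes together summed to 4516, 4778 and 5341 on the arrays labelled Ano1fl/fl and to 10990, 9513 and 13850 on the others, again highest on array 3 and lowest on array 2. The part of those cells in the rise of *Derl3* was not tested.

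Its relatives did not follow it to that extent. *Derl1*, the ubiquitous derlin, rose by 0.60 (limma adjusted p = 0.00062) at its brightest probe and stood at 0.01 at the other, and *Derl2* differed by -0.08. The ubiquitin ligase *Syvn1*, also known as HRD1, went from 13.72, 13.60 and 13.63 to 14.53, 14.35 and 14.49, a rise of 0.80 (limma adjusted p = 0.00048). *Sel1l*, the partner that stabilises *Syvn1*, had signals of 13.12, 13.08 and 13.22 against 13.47, 13.60 and 13.49, a rise of 0.38 (limma adjusted p = 0.0071). The groups did not overlap for either gene of this ligase complex, although a dim probe of *Sel1l* stood at -0.23, and the mean of all its probes was not called (adjusted p = 0.123). *Edem2*, which trims mannose to mark glycoproteins for disposal, rose by 0.52, whereas its relative *Edem1* differed by -0.03 (limma adjusted p = 0.0091 and 0.734).

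Of the 3 sensors and *Xbp1*, 1 gene was higher and none was lower by limma (3 and 0 at an unadjusted p under 0.05), with a median of 0.24. The 25% higher were close to the 23.4% of all genes, and the count higher was 1 to 2 with any single array left out. *Atf6*, the sensor that is cut in the Golgi to become a transcription factor, was at 11.93, 11.91 and 11.94 on the arrays labelled Ano1fl/fl and at 12.32, 12.41 and 12.61 on the others. The groups did not overlap, and the rise was 0.52 (limma adjusted p = 0.0042). A second, very dim probe stood at -0.14, and the mean of both probes was not called (adjusted p = 0.209).

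*Ern1*, which encodes IRE1, was at 11.07, 11.02 and 11.07 against 11.18, 11.48 and 11.30, a difference of 0.26 that was not called although the groups did not overlap (limma adjusted p = 0.0548), and its other tested probes stood at -0.24 and 0.08. *Eif2ak3*, which encodes PERK, was at 9.97, 9.84 and 9.89 against 9.75, 9.88 and 9.95. These groups overlapped, at a difference of -0.04 (limma adjusted p = 0.708), but a dimmer probe of the gene rose by 0.55 and was called. *Xbp1*, whose mRNA IRE1 splices, was at 15.17, 14.95 and 14.92 against 15.28, 15.17 and 15.27, a difference of 0.22 (limma adjusted p = 0.0837). Its groups overlapped, and of its 2 other probes 1 was called, at 0.38. The array probes were not read as spliced or unspliced forms of *Xbp1*, and activity of the sensors was not measured.

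**Figure D3:**
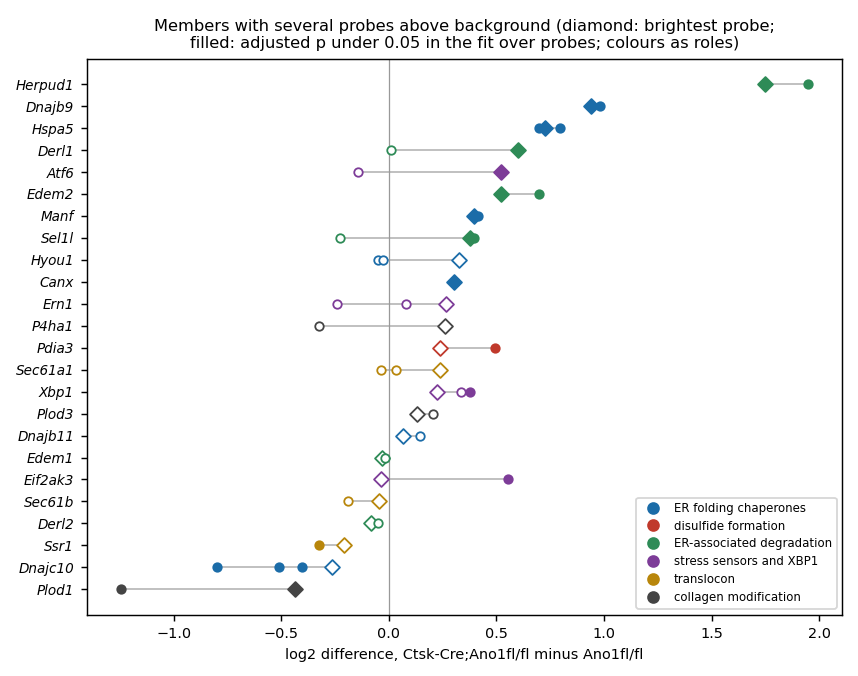
Log2 difference between the groups (arrays labelled Ctsk-Cre;Ano1fl/fl minus Ano1fl/fl) at every tested probe of the 24 genes that have several, with the brightest probe as a diamond and filled symbols called in the fit over probes. Probes of *Herpud1*, *Dnajb9* and *Hspa5* sit together, whereas those of *Atf6*, *Eif2ak3*, *Ern1*, *Sel1l* and *P4ha1* lie on both sides of 0.

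The 41 genes had 81 probes, of which 73 were tested and 7 were above background on no array. In the fit over probes, 32 were higher and 7 were lower. The shares over all tested probes were not worked out, and over all genes 23.4% were higher and 29.0% lower. Of the 24 genes with several tested probes, 17 had all of them in 1 direction and 7 had both (*Hyou1*, *Sel1l*, *Atf6*, *Ern1*, *Eif2ak3*, *Sec61a1* and *P4ha1*). No gene had probes called in opposite directions.

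In the translocon, 1 of 3 genes, or 33.3%, was higher and none was lower by limma (1 and 1 at an unadjusted p under 0.05). Of all genes, 23.4% were higher and 52.4% were called in either direction. *Sec61a1*, the pore subunit, was at 13.47, 13.55 and 13.57 on the arrays labelled Ano1fl/fl and at 13.87, 13.75 and 13.68 on the others, a rise of 0.24 close to the threshold (limma adjusted p = 0.0440). The groups did not overlap, but the other probes stood at 0.03 and -0.04, and the call was lost with 75th percentile scaling (adjusted p = 0.169) and in 5 of the 6 fits that left out an array. The small subunit gene *Sec61b* differed by -0.05, and *Ssr1*, of the translocon-associated complex, by -0.21 (limma adjusted p = 0.576 and 0.0596). A further list of 32 genes for import into the ER and N-glycosylation had 10 higher, or 31.2% against 23.4% of all genes, and 2 lower, with a median of 0.07. The count for ER import and N-glycosylation higher fell to 6 without array 1 or array 2 labelled Ano1fl/fl, to 5 without array 1 or array 2 labelled Ctsk-Cre;Ano1fl/fl, and to 6 with the mean of all probes or the replicate block. *Srprb*, the membrane subunit of the signal recognition particle receptor, *Spcs2* of the signal peptidase and *Srp72* of the signal recognition particle rose by 0.47, 0.45 and 0.40, and *Ost4* and *Dad1* of the oligosaccharyltransferase fell by 0.37 and fell by 0.24.

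The widest range was found among the 7 genes for collagen modification, of which 4 or 57.1% were higher, against 23.4% of all genes, and 1 or 14.3% lower, against 29.0%. *Fkbp10* encodes a prolyl isomerase that folds procollagen and is needed for lysine hydroxylation of its ends. Its log2 signal was 5.97, 5.73 and 5.55 on the arrays labelled Ano1fl/fl and 11.28, 10.81 and 10.53 on the others. The difference of 5.12 ± 0.21 (standard error) was the largest of the 41 genes and amounts to 34.9-fold (limma adjusted p = 2.2e-05), but depends on how the dim control signal is treated, being 4.04 with normexp background correction and 4.43 with the series matrix values. *P4ha2*, a catalytic subunit of prolyl 4-hydroxylase, went from 9.13, 9.11 and 8.69 to 11.73, 11.29 and 10.92, a difference of 2.34 or 5.05-fold (limma adjusted p = 0.00045), and 1.26 with the mean of its probes, of which the other was above background on no array. Neither gene's groups overlapped. The probes lie at mm9 chromosome 11 from 100286080 to 100286139 for *Fkbp10* and from 53945032 to 53945091 for *P4ha2*.

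*Plod2* encodes the lysyl hydroxylase of collagen telopeptides. Its probe, at mm9 chromosome 9 from 92502483 to 92502542, was well above background on none of the arrays labelled Ano1fl/fl and on all 3 of the others, where its log2 signal was 6.46, 6.46 and 6.04. Setting the former at the dimmest normalised signal that counted as above background gave a bound of 5.11-fold higher on the latter. Its measured values on the former, 2.74, 3.16 and 3.04, have only that bound as a meaning, and the adjusted p of limma, 3.6e-05, rests on them. The size did not hold under other treatments of the background, with log2 differences of 1.00 with normexp, 1.5 with the series matrix values and 1.75 with the mean of its probes.

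The remaining collagen-modifying enzymes did not share these rises. *P4ha1*, the other catalytic subunit, was at 10.47, 10.55 and 10.41 against 10.90, 10.73 and 10.58, a difference of 0.26 that was not called, and its second probe stood at -0.32. *Plod3*, the lysyl hydroxylase that also glycosylates collagen, differed by 0.13, and *Crtap*, the scaffold of the prolyl 3-hydroxylase complex, rose by 0.39 (limma adjusted p = 0.0182), a call lost with 75th percentile scaling (adjusted p = 0.0602) and without some single arrays. *Plod1*, the lysyl hydroxylase of the collagen helix, fell by 0.44 on the log2 scale at its brightest probe, from 11.13, 11.06 and 10.99 to 10.80, 10.63 and 10.44 with no overlap (limma adjusted p = 0.0146). A dimmer probe of *Plod1* fell by 1.25.

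Stromal cell markers moved with this group. The summed signal of 18 such genes was 94260 to 108200 on the arrays labelled Ano1fl/fl and 135100 to 180400 on the others. Without *Lgals1*, which took most of the first sum, it was 6639 to 7068 against 103100, 80930 and 63350 on arrays 1, 2 and 3 labelled Ctsk-Cre;Ano1fl/fl. The same order, highest on array 1 and lowest on array 3, was found in 15 of the 41 genes, or 36.6%, against 19.6% of all genes. They include *Fkbp10*, *P4ha2*, *Plod2*, *P4ha1*, *Plod3*, *P4hb* and *Calr*, and also *Plod1*, which fell. On the arrays labelled Ano1fl/fl 16, 15 and 15 of the 18 markers were well above background, *Lum* and *Pdgfra* on none of them, and all 18 were on the others. Their part in the rises of *Fkbp10*, *P4ha2* and *Plod2* was not tested. The order of the arrays was taken from these same data, so the count of genes that share it is only a description. A further list of collagens and the enzymes that process them had 20 of 26 tested genes higher by limma and a median of 3.33. None was lower (0 at an unadjusted p under 0.05). The share higher was 76.9%, against 23.4% of all genes. Of the 26, *Col5a2* was well above background on 0 of the 3 arrays labelled Ano1fl/fl, and *P3h2* and *Loxl4* on 1. These 3 genes thus entered the test through the other group. Over the 23 genes above background on all 6 arrays, 18 were higher and the median was 3.46. Its largest rises were 6.12 for *Col1a1* and 5.39 for *Col1a2*, the chains of type I collagen, and 5.26 for *Serpinh1*, the collagen chaperone of the ER. *Ppib* and *P3h1*, which form the prolyl 3-hydroxylase complex with *Crtap*, differed by -0.10 and -0.11 and were not called.

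**Figure D4:**
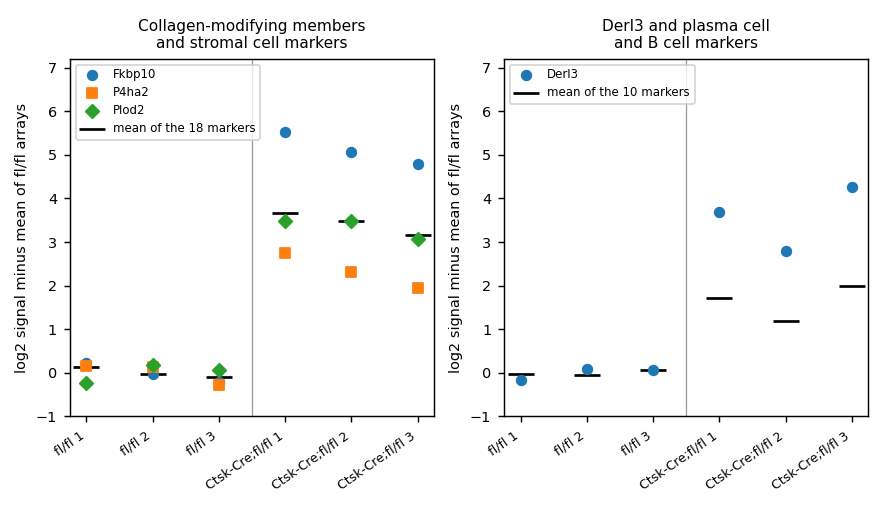
Log2 signal on each array minus the mean of the 3 arrays labelled Ano1fl/fl (fl/fl) for *Fkbp10*, *P4ha2* and *Plod2* beside the mean of 18 stromal cell markers, and for *Derl3* beside the mean of 10 plasma cell and B cell markers. The genes and the marker means all sit near 0 on the fl/fl arrays and above 1 on the arrays with Cre; *Fkbp10* is highest on array 1 and *Derl3* on array 3 of that group.

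Other lists of the secretory pathway set these values in context. The stress signalling list, which holds the targets of PERK and ATF4, had 17 of 27 genes higher, 10 of them past 2-fold, 3 lower and a median of 0.55. These are 63% and 11.1%, against 23.4% and 29.0% of all genes, and 74.1% were called in either direction, against 52.4%. Without *Ern2*, which entered the test only through the group labelled Ano1fl/fl, 17 of 26 were higher and 2 lower. *Chac1*, which degrades glutathione, *Vldlr*, a lipoprotein receptor, and *Trib3*, a pseudokinase, rose by 4.88, 3.42 and 3.37, and the CHOP gene *Ddit3* and *Atf4* itself rose by 1.75 and 0.84. *Ern2*, the IRE1 form of mucosal epithelia, *Eif2ak2*, the kinase PKR, and *Atf6b*, the ATF6 paralog, fell by 1.90, 0.51 and 0.32, *Ern2* being well above background on 1 of the arrays labelled Ctsk-Cre;Ano1fl/fl. The ATF4 element TGATGNAA lay in 6 of the 24 promoters of this list that were at hand, or 25%. The matches of the 3 largest risers that carry it and of *Herpud1* are shown here, with its fixed letters in capitals.
Chac1: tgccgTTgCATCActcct
Vldlr: aatagTTgCATCAgcgct
Trib3: caggtTTaCATCAgccgg
Herpud1: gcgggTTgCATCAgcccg

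Degradation factors outside the 41 had 8 of 20 genes higher and 2 lower, with a median of 0.23. The 50% called in either direction were close to the 52.4% of all genes, and the 40% higher stood against 23.4%. The count for other ER-associated degradation higher was 5 with 75th percentile scaling and 12 with normexp background correction. *Ubxn4*, which recruits the extracting ATPase to the ER, *Vimp*, now called *Selenos*, and *Vcp*, the ATPase itself, rose by 0.68, 0.61 and 0.48, whereas the ligase gene *Rnf139* and the mannosidase gene *Man1b1* fell by 0.37 and 0.28. Of 29 further folding factors tested, 8 or 27.6% were higher and 9 or 31.0% lower, close to the shares of all genes given above, with a median of -0.11. *Mzb1*, a BiP cofactor of B cells and plasma cells, rose by 3.84, the sulfhydryl oxidase *Qsox1* by 0.80 and *Txndc11* by 0.67. *Prdx4*, the ER peroxiredoxin, *Cnpy4* and the glucosidase gene *Mogs* fell by 0.93, 0.87 and 0.48. Of 27 genes for transport from the ER to the Golgi, 8 or 29.6% were higher and 1 or 3.7% lower, against 23.4% and 29.0% of all genes, and 33.3% were called in either direction, against 52.4%. Their median was 0.09, and the count for ER to Golgi transport higher was 4 with the mean of all probes. Without *Kdelr3*, which entered the test only through the group labelled Ctsk-Cre;Ano1fl/fl, 7 of 26 were higher and 1 lower, with a median of 0.08. *Kdelr3*, a receptor that returns escaped ER proteins, rose by 3.31 from a level that was above background on only 1 array labelled Ano1fl/fl, and its relative *Kdelr1* fell by 0.34, while the vesicle coat genes *Sec24d* and *Sec24a* rose by 0.74 and 0.55.

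**Figure D5:**
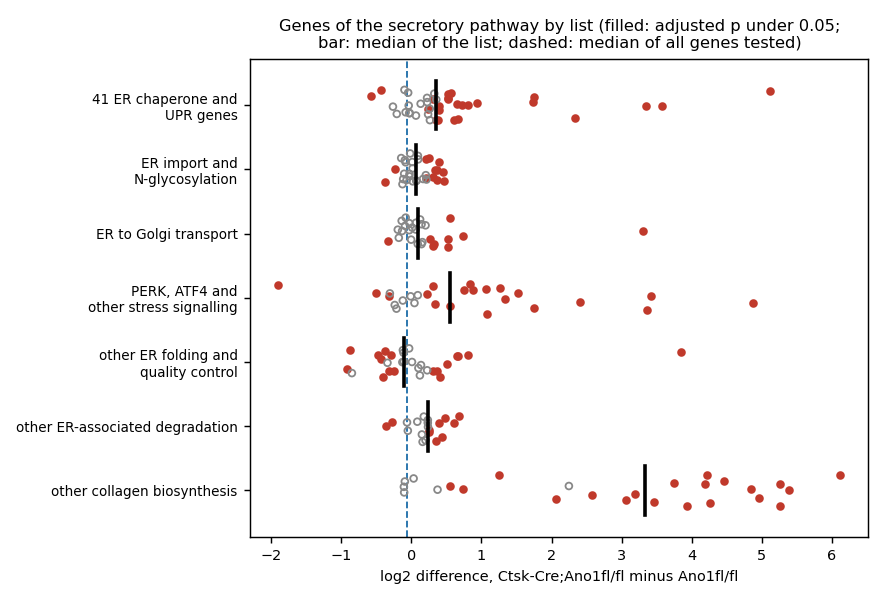
Log2 difference of each tested gene in the 41 and in the 6 further lists, with filled points called at an adjusted p under 0.05, a bar at each list's median and a dashed line at the median of all genes, -0.06. The 41 genes have a median of 0.35, between the 0.55 of the stress signalling list and the 0.07 of the ER import list, and the other collagen list stands apart at 3.33.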

How the data were processed

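RNA of 6 cultures, 3 in each group, was measured on one-colour arrays. The authors deposited Feature Extraction 10.7.1.1 intensity files, whose processed signal has background and within-array trends removed, and a series matrix that holds the median spot intensity (largest difference 0). Log2 values of the processed signal were quantile normalized between arrays, the step the methods name. Spots of a probe were averaged, 14 probes with a missing value and all control spots were left out, and each gene was read from its brightest probe. Genes entered the test if that probe passed the scanner's mark for background on each of the 3 arrays of either group, which all 41 did. Groups were compared with limma 3.58.1 in R 4.3.3, with Benjamini-Hochberg adjustment over 20645 genes, and the script was tested on simulated data. The spread between mice is that of 3 cultures a group. The members and lists were chosen with earlier results of these data known. Every array's value is given for members past 2-fold, for *Hspa5*, *Xbp1*, *Atf6*, *Ern1* and *Eif2ak3* and for members with probes in both directions. Those of *Dnajb9*, *Calr*, *Syvn1*, *Ero1lb* and *Plod1* were added after their values were seen. In other lists up to 3 rises and 3 falls among the called genes are named, and *Ddit3*, *Atf4*, *Ppib* and *P3h1* were added after their values were seen. Promoters are RefSeq's, on GRCm38.p6, probe positions those of the array files on mm9. The split of 1 marker list into plasma cell and B cell genes was made after their values were seen. The value of 1 gene is not reported here. Alternatives were other scaling, background, filters, probe rules, tests and single arrays left out.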

Additional observations from a re-analysis of the deposited data

How the results depend on the processing

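The members higher numbered 19 to 27 and those higher by more than 2-fold 5 to 6 under every alternative, the sixth being *Plod2*, and 20 to 24 and 6 with any single array left out. No called member turned direction, and 18 of the 24 calls held under every alternative that tested them, *Plod2* not being tested with the filter on all 6 arrays. The exceptions were *Sec61a1*, *Ero1lb*, *Crtap*, *Canx*, *Atf6* and *Sel1l*. *Canx*, *Crtap* and *Sec61a1* were not called with 75th percentile scaling (adjusted p = 0.114, 0.0602 and 0.169), and *Atf6*, *Sel1l*, *Ero1lb* and *Sec61a1* not with the mean of all probes (0.209, 0.123, 0.725 and 0.654). *Ero1lb* was also lost with no filter and the methods' t-test (0.0679 and 0.0726) and without replicate 1 or 2 of either group (0.0506 to 0.0681), *Crtap* without Ano1fl/fl replicate 1 or 3 or Ctsk-Cre;Ano1fl/fl replicate 1 or 2 (0.0506 to 0.0561), and *Sec61a1* in 5 of the 6 fits without an array. The members lower were 4 with 75th percentile scaling, normexp or trend and robust settings, 1 with no filter or the methods' t-test, and 1 to 2 with an array left out. With 75th percentile scaling the median log2 difference of the members was 0.26 and the median log2 difference of all genes -0.12; with no filter the latter was -0.0073. The ranges with an array left out were 0.32 to 0.39 and -0.073 to -0.049.

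Scaling by the 75th percentile gave 4 for ER import and N-glycosylation lower, 5 for other ER-associated degradation higher, 3 for ER to Golgi transport lower and 1 for other collagen biosynthesis lower. The mean of all probes gave 6 for ER import and N-glycosylation higher and 1 lower, 1 for other ER-associated degradation lower, and 4 for ER to Golgi transport higher and 2 lower. The methods' t-test gave 4 for ER import and N-glycosylation lower and 2 for ER to Golgi transport lower. With an array left out, ER import and N-glycosylation higher ranged from 5 to 9 and lower from 1 to 2, other ER-associated degradation lower from 1 to 2, and ER to Golgi transport lower from 0 to 1, the PERK, ATF4 and other stress signalling lower from 2 to 4. Sign turns were seen only among members that were not called: *Dnajb11* stood at -0.025 with 75th percentile scaling. With the mean of all probes *Eif2ak3* stood at 0.26, *Ern1* at -0.14, *Hyou1* at -0.012 and *P4ha1* at -0.032. With an array left out *Creld2* ranged from -0.11 to 0.048, *Edem1* from -0.072 to 0.0072, *Eif2ak3* from -0.085 to 0.016 and *Sdf2l1* from -0.19 to 0.023. The causes were not tested.

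The correlations of deviations between same-numbered arrays were 0.0044, -0.062 and -0.081, and those between differently numbered arrays ran from -0.12 to 0.18. No pairing by replicate number was seen, but 3 arrays a group cannot settle whether littermates were paired. With the replicate block the members higher were 21 and the members lower 2, *Sec61a1* was not called (adjusted p = 0.113), ER import and N-glycosylation higher was 6 and lower 1, and other ER-associated degradation lower was 1, while all genes higher were 4200 and all genes lower 5079. A block for slide or scan was not run, as there was 1 of each. Dim probes limit *Plod2*, *Hyou1* and the control level of *Fkbp10* and *Derl3*, and 3 arrays a group limit every value.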
